A study of Arabidopsis thaliana with 12 samples.

Results

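The ABA response of nup1-1 seedlings was described across the transcriptome: which genes, processes and gene families were higher or lower in 5-day-old nup1-1 seedlings of Arabidopsis thaliana grown on MS medium with abscisic acid (ABA) than in nup1-1 seedlings of the same age grown on MS medium without it. Each of these groups has 3 samples by the labels, and nup1-1 is a mutant of NUP1, a gene of the nuclear pore, the channel between nucleus and cytoplasm. The mutant is represented by a single allele, and the labels state neither the ABA dose nor the nature of the mutation. Wild-type Col-0 seedlings, on ABA and untreated, 3 samples each, were used only where the nup1-1 response was set against the wild-type one. Nothing in the labels says that the samples of a group were grown separately, so p-values measure a spread that may be technical.

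The members are genes that the authors' table marked as tested and that reached 1 FPKM (fragments scaled by transcript length and sequencing depth) in either nup1-1 group: 19525 of the 33201 rows. Just inside the level rule lay AT1G77138, with 0.488 FPKM on ABA and 1.00 FPKM untreated, and just outside it AGP6, with 0.999 FPKM on ABA and 0.683 FPKM untreated. The table gives 1 FPKM value per group and gene, so these values have no SD or n and the depth of single libraries is unknown. A gene is called here when its deposited q-value is under 0.05. A log2 change of a single gene is the log2 ratio of ABA over untreated with a standard error (SE) rebuilt from the deposited statistic, and a median over many genes uses log2 values with 1 FPKM added to both groups.

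ABA is the hormone that holds seeds dormant and stops growth under drought. Its receptors bind and block phosphatases, which frees kinases that activate transcription factors of the ABI5 class. These factors bind short DNA letters known as ABA-responsive elements, and in seeds they act together with ABI3, which recognises the RY letters of storage protein genes. In a young seedling ABA can keep the seed programme running and delay greening. The labels do not state the degree of germination on ABA, so a seed stage that was kept and a change of expression within cells cannot be told apart.

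Of the 19525 genes, 4246 were called higher on ABA (21.7%) and 5018 were called lower (25.7%), which leaves 10261 without a call. The median log2 change was 0.01, with quartiles of -0.45 and 0.35. Among called genes, 1270 were higher and 2116 lower by at least 1 on the log2 scale, whereas 201 were higher and 143 lower by at least 3. NUP1 itself stood at 7.53 FPKM on ABA and 10.6 FPKM untreated, a called log2 change of -0.49 ± 0.15, and a value per gene does not check the mutant label. Of 12 reference genes, ACT2 was called lower and UBQ5 higher, and the other 10 had no call.

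Promoters of 6 genes are shown with motif letters whose shares by direction of change are given below. Each is the 250 bases before the gene start on the gene's own strand, 5′ to 3′, from RefSeq (TAIR10.1). Capitals mark the motif named below it, on either strand. AtLEA4-1, a late embryogenesis gene (chr1:11774234-11774483, plus strand), is shown for the ABRE-like letters ACGTGG or ACGTGT. OLEO1, an oil body coat gene (chr4:12900180-12900429, plus strand), and SESA1, a storage albumin gene (chr4:13607079-13607328, plus strand), are shown for the RY letters CATGCA. CP12-2, a regulator of the Calvin cycle (chr3:23090694-23090943, plus strand), is shown for the I-box GATAAG of light-regulated genes. STV1, a cytosolic ribosomal protein gene (chr3:19662026-19662275, minus strand), is shown for the site II letters GGCCCA, and the cyclin gene CYCB1;3 (chr3:3627274-3627523, minus strand) for the MSA-like letters AACGG of genes of mitosis.
AtLEA4-1: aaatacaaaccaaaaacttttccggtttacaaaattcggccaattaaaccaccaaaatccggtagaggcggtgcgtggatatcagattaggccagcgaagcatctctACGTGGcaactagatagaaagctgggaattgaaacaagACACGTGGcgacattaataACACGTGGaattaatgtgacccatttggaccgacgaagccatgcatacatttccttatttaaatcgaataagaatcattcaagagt
OLEO1: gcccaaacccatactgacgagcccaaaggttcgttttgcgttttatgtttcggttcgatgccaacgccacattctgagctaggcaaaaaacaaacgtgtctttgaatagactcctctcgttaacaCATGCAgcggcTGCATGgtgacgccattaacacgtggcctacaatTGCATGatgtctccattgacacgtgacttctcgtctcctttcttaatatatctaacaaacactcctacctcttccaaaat
SESA1: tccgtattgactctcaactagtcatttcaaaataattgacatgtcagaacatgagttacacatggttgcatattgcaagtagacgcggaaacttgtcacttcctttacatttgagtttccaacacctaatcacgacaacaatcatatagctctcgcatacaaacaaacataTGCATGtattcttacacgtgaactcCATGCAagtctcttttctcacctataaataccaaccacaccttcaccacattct
CP12-2: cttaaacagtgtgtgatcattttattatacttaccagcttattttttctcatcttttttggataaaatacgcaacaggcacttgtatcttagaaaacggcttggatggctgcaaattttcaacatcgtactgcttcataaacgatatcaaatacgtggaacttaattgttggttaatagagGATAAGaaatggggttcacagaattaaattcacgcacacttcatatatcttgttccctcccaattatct
STV1: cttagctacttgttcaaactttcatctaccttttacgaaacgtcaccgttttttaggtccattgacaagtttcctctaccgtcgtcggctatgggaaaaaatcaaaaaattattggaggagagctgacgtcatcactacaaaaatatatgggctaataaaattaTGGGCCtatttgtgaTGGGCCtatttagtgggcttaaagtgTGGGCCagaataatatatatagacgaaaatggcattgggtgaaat
CYCB1;3: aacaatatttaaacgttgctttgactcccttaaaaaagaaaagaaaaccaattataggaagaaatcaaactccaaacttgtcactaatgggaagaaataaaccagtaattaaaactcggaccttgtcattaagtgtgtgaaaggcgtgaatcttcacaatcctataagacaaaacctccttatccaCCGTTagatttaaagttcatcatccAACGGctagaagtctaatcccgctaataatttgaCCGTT

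These 6 genes were all called. AtLEA4-1 stood at 633 FPKM on ABA and 0.434 FPKM untreated, OLEO1 at 610 FPKM on ABA and 0.778 FPKM untreated, and SESA1 at 40.0 FPKM on ABA and 0.284 FPKM untreated. STV1 stood at 784 FPKM on ABA and 541 FPKM untreated, and CYCB1;3 at 13.7 FPKM on ABA and 5.78 FPKM untreated. CP12-2 moved the other way, with 84.6 FPKM on ABA and 980 FPKM untreated.

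The ABRE-like letters became more frequent with the size of the rise. They stood in 14.9% of all 32207 promoters, in 15.9% of promoters of members without a call, in 21.7% of those called higher, in 32.5% of those higher by at least 1 on the log2 scale and in 57.3% of the 199 promoters higher by at least 3. On the lowered side they stood in 17.9% of promoters called lower and in 22.4% of the 143 lower by at least 3. Among the 199 promoters higher by at least 3, 42.7% held at least 2 such matches, against 4.58% of all promoters. Overlapping matches on opposite strands are counted separately, so a single site such as ACACGTGG, which holds the G-box CACGTG, counts as 2. A second match therefore need not be a separate site. The G-box stood in 40.7% of these 199 promoters and in 5.78% of all promoters. The RY letters stood in 25.6% of the same 199 promoters and in 8.87% of all promoters, against 14.7% of the 143 lower by at least 3, 8.91% of those called higher and 9.23% of those called lower. They were found in all 8 promoters of the storage protein list and in 63.6% of 11 oil body promoters. The I-box stood in 25.2% of the 143 promoters lower by at least 3, against 12.6% of all promoters and 18.1% of the 199 promoters higher by at least 3. Site II showed another pattern: 20.7% of promoters called higher and 9.45% of those called lower held it, against 18.4% of those without a call and 12.2% of all promoters, while promoters higher by at least 3 held it in 13.6%. It stood in 57.1% of 35 cytosolic ribosomal protein promoters, 46% of 50 DNA replication promoters and 2.17% of 92 promoters of auxin early-response genes, and the MSA-like letters in 46.2% of 91 mitosis promoters against 20.8% of all. The ABRE-like letters were also present in 36% of 50 light-harvesting and photosystem promoters, a list of which no member was called higher. Over the 19227 promoters of members, 17.7% held the ABRE-like letters, near the 17.9% of those called lower, and 6.29% held at least 2 such matches. The other shares over members were 7.90% for RY, 12.3% for the I-box and 16.6% for site II. A match describes the letters only. The GC content was 34.8% in promoters higher by at least 3 and 31.6% over all promoters, and its part in these shares was not tested.

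**Figure D1:**
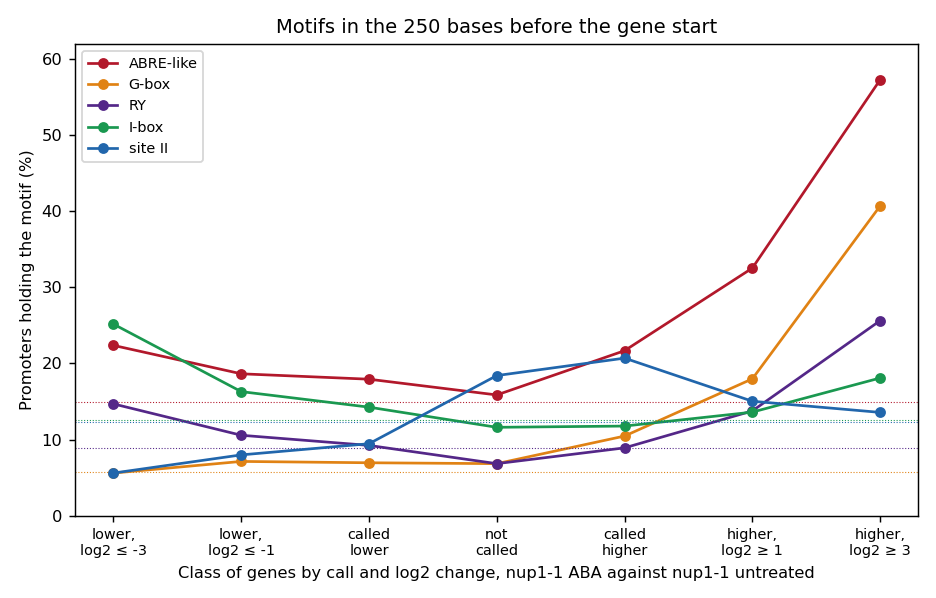
Share of promoters (%, vertical axis) that hold each of 5 motifs in the 250 bases before the gene start, for classes of genes from the most lowered on the left to the most raised on the right; dotted lines give the share over all 32207 promoters. The ABRE-like line climbs to 57.3% at the right end, the I-box line reaches 25.2% at the left end, and the site II line is lowest at 5.59% at the left end.

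RBCS1A, CAB3 and GRP7 were among the 12 highest genes of both groups. AT3G02480, a late embryogenesis abundant family gene on chromosome 3, had 17516 FPKM on ABA and 50.03 FPKM untreated (log2 change 8.45 ± 0.27), which made it the highest gene of the ABA group. The lipid transfer protein gene LTP2 followed with 7891 FPKM on ABA and 443 FPKM untreated, and then ICL, isocitrate lyase of the glyoxylate cycle, with 6798 FPKM on ABA and 35.2 FPKM untreated. The untreated group was headed by RBCS1A, a small subunit gene of Rubisco, with 6482 FPKM on ABA and 17555 FPKM untreated (q = 0.0291 in the authors' deposited table), and by the light-harvesting gene LHB1B2, with 2442 FPKM on ABA and 13274 FPKM untreated. Some very abundant genes had no call: GRP7, an RNA-binding protein gene of the clock, had 4329 FPKM on ABA and 5814 FPKM untreated, and the metallothionein gene MT2A had 2946 FPKM on ABA and 2312 FPKM untreated. The ABA pool was more even, since 667 genes made up 50% of its summed FPKM against 582 genes in untreated seedlings, and the top 100 genes held 21.2% on ABA against 27.0% untreated.

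Calls were more frequent among abundant genes. Of 310 genes averaging 500 FPKM or more, 137 were called higher and 118 lower, while of 4678 genes averaging under 5 FPKM, 819 were called higher and 1193 lower. Across the 5 chromosomes the share called higher ran from 20.5% to 23.2% and the share called lower from 24% to 26.8%. The plot of gene levels shows the late embryogenesis genes far above the diagonal and the photosystem genes below it.

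**Figure D2:**
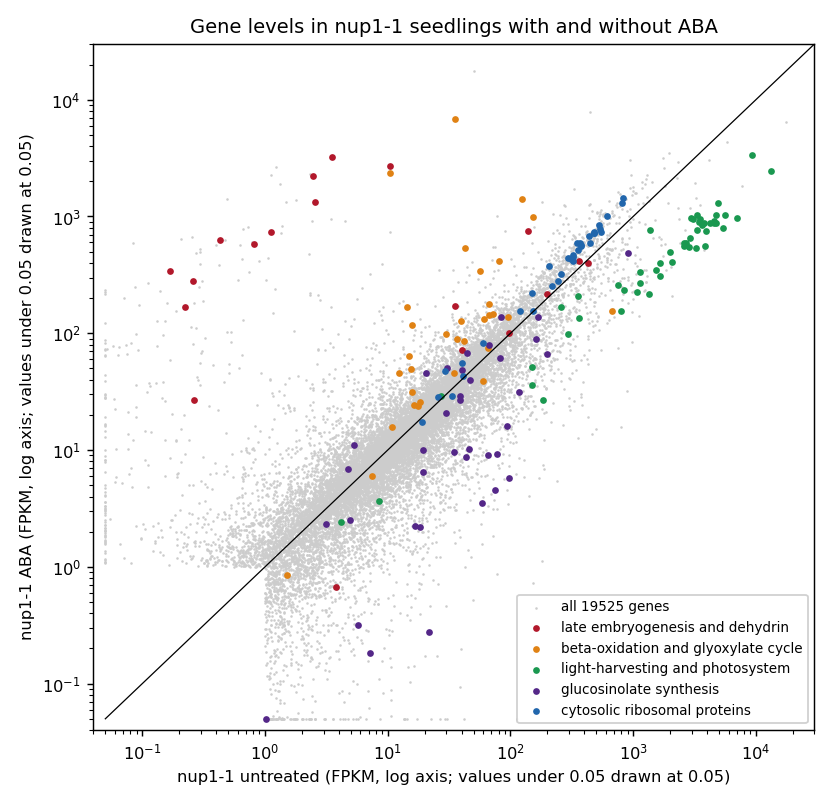
FPKM on ABA (vertical, log axis) against FPKM untreated (horizontal, log axis) for 19525 genes of nup1-1 seedlings, with 5 gene lists coloured; the line marks equal levels. ICL stands at 6798 against 35.2 FPKM, LEA18 at 3220 against 3.49 FPKM, and PSBR at 974 against 6985 FPKM.

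Of 19 late embryogenesis and dehydrin genes, whose proteins shield cell contents during drying, 14 were called higher and 1 lower (LEA3, with 0.678 FPKM on ABA and 3.80 FPKM untreated), with a median log2 change of 7.12 against 0.01 over all members. LEA18 had 3220 FPKM on ABA and 3.49 FPKM untreated (9.85 ± 0.33), and LEA7 had 2228 FPKM on ABA and 2.48 FPKM untreated (9.81 ± 0.29). Together the list held 1.51% of the summed FPKM on ABA and 0.132% untreated. The list does not hold every gene annotated to this family. AT3G02480, outside it, alone had 17516 FPKM on ABA, against 14360 FPKM for the whole list. AT3G15670, also outside it, had 2644 FPKM on ABA and 1.24 FPKM untreated. Among genes outside the list, AT1G04560, of the AWPM-19-like family, had 1421 FPKM on ABA and 0.487 FPKM untreated, and AT3G03341, annotated as a cold-regulated protein, had 2311 FPKM on ABA and 2.34 FPKM untreated. PER1, a seed peroxiredoxin that removes peroxide, had 633 FPKM on ABA and 0.471 FPKM untreated (10.39 ± 0.44).

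Of 8 storage protein genes, 5 were called higher and none lower. The cruciferin gene CRA1 had 1340 FPKM on ABA and 1.49 FPKM untreated, and PAP85, a vicilin-like gene, had 58.5 FPKM on ABA and 0.167 FPKM untreated. Storage protein transcripts nevertheless stayed a small share of the pool, 0.178% on ABA and 0.000931% untreated. Of 11 oil body genes, 5 were called higher, OLEO3 among them with 288 FPKM on ABA and 1.02 FPKM untreated, and 1 was called lower, the caleosin gene CLO4 with 5.98 FPKM on ABA and 12.5 FPKM untreated. Of 10 seed maturation regulators, 5 were called higher and 3 lower. ABI5 had 73.4 FPKM on ABA and 2.72 FPKM untreated, EEL, a related bZIP gene, had 21.4 FPKM on ABA and 3.32 FPKM untreated, and SPT, a bHLH regulator of germination, had 28.1 FPKM on ABA and 8.29 FPKM untreated. The dormancy gene DOG1 had 0.222 FPKM on ABA and 2.09 FPKM untreated and was called lower (q = 0.00156 in the authors' deposited table), as was WRI1, a regulator of fatty acid synthesis, with 4.15 FPKM on ABA and 6.81 FPKM untreated. Of 18 chromatin repressors of the seed programme, 5 were called higher and none lower at a median of 0.10. That is 27.8% called higher, near the 21.7% of all members. CLF, a Polycomb methyltransferase, had 17.6 FPKM on ABA and 10.7 FPKM untreated.

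Most genes that burn seed oil were called higher, and most genes that make fatty acids were called lower. Of 32 genes of beta-oxidation and the glyoxylate cycle, which turn fatty acids into sugar, 27 were called higher and 3 lower with a median log2 change of 1.17, and their pool share was 1.56% on ABA and 0.201% untreated. ACX1, an acyl-CoA oxidase, had 132 FPKM on ABA and 61.1 FPKM untreated (1.11 ± 0.16). Peroxisome biogenesis genes, which build the organelle of that pathway, had 13 of 24 called higher and 2 lower, with the import receptor PEX5 at 59.7 FPKM on ABA and 36 FPKM untreated. Of 30 genes of fatty acid and triacylglycerol synthesis, 21 were called lower and 4 higher. The acyl carrier gene ACP4 had 283 FPKM on ABA and 778 FPKM untreated, the biotin carrier gene BCCP2 had 9.18 FPKM on ABA and 27.3 FPKM untreated, and the exceptions included TAG1, which makes triacylglycerol, with 45.1 FPKM on ABA and 22.9 FPKM untreated.

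Within several families a member was called higher and another lower. These pairs were chosen after their values were seen and are given as a description. Among tonoplast aquaporins, TIP3;1, the seed type, had 643 FPKM on ABA and 0.205 FPKM untreated, whereas DELTA-TIP had 230 FPKM on ABA and 1025 FPKM untreated, and their sum was 873 FPKM on ABA and 1025 FPKM untreated. Among glutamine synthetases the cytosolic GLN1;5 had 83.5 FPKM on ABA and 0.526 FPKM untreated, and the plastid GS2 had 565 FPKM on ABA and 1674 FPKM untreated. Among peroxisomal malate dehydrogenases PMDH1 had 340 FPKM on ABA and 56.4 FPKM untreated, and PMDH2 had 156 FPKM on ABA and 672 FPKM untreated. For the large subunit of ADP-glucose pyrophosphorylase, which commits sugar to starch, APL3 had 168 FPKM on ABA and 9.16 FPKM untreated, and APL1 had 61.3 FPKM on ABA and 155 FPKM untreated. The light-dependent step of chlorophyll synthesis was represented by PORA, with 55.0 FPKM on ABA and 0.510 FPKM untreated, and by POR C, with 82.7 FPKM on ABA and 146 FPKM untreated.

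The same arrangement was seen in proteases, catalases and wall enzymes. BETA-VPE, the vacuolar processing enzyme of seeds, had 167 FPKM on ABA and 3.42 FPKM untreated, and GAMMA-VPE, the vegetative type, had 24 FPKM on ABA and 64.9 FPKM untreated. CAT2 had 816 FPKM on ABA and 156 FPKM untreated, and CAT3 had 434 FPKM on ABA and 893 FPKM untreated. The lipid transfer gene LTP5 had 235.3 FPKM on ABA and 1237 FPKM untreated, opposite to LTP2. XTH25, a xyloglucan endotransglucosylase of the cell wall, had 12.3 FPKM on ABA and 0.240 FPKM untreated, and XTH6 had 1.01 FPKM on ABA and 42.4 FPKM untreated. EXPA20, an expansin, had 99.5 FPKM on ABA and 9.99 FPKM untreated, and EXPA8 had 7.05 FPKM on ABA and 80.0 FPKM untreated. GASA3, a small peptide gene of gibberellin-regulated type, had 188 FPKM on ABA and 0.314 FPKM untreated (q = 0.00787 in the authors' deposited table). GASA6 had 21.8 FPKM on ABA and 308 FPKM untreated.

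**Figure D3:**
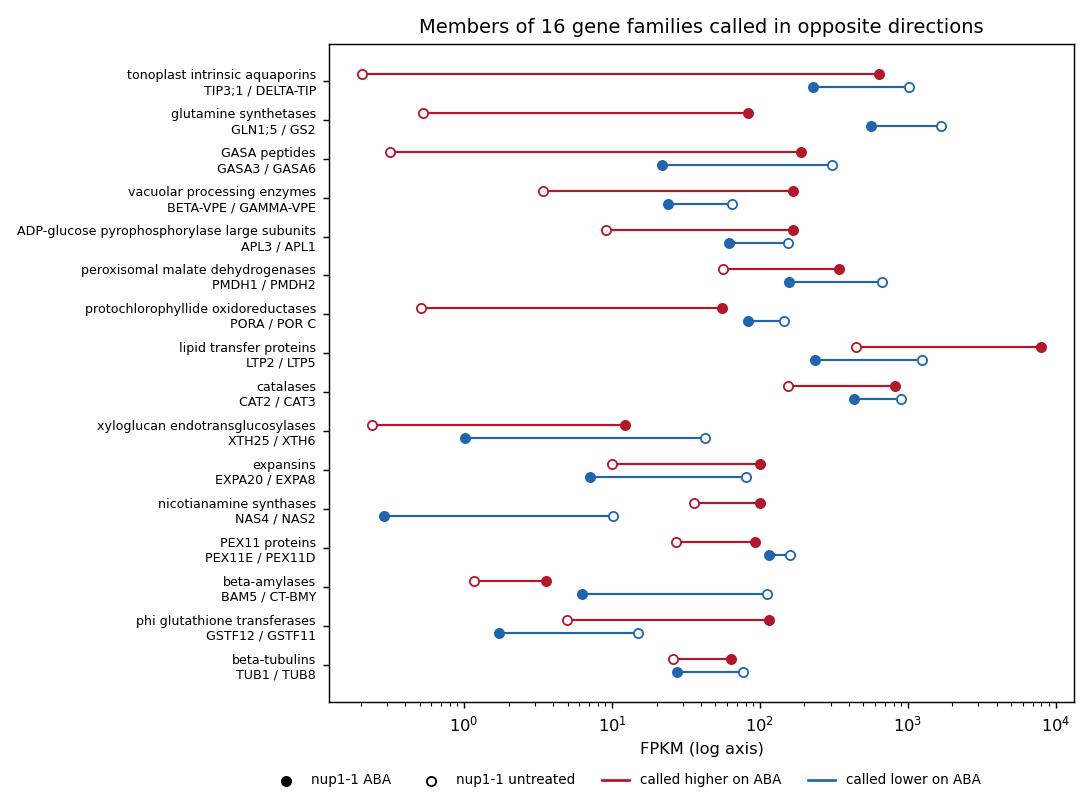
FPKM (log axis) of a raised and a lowered member of each of 16 gene families, filled circles for nup1-1 ABA and open circles for nup1-1 untreated, red for the member called higher and blue for the member called lower. TIP3;1 spans 643 FPKM on ABA and 0.205 FPKM untreated, and PEX11D, with 116 FPKM on ABA and 161 FPKM untreated, has a short line.

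Of 50 light-harvesting and photosystem genes, 49 were called lower and none higher, with a median log2 change of -2.11, and the list held 4.31% of the pool on ABA and 13.9% untreated. LHB1B1 had 554 FPKM on ABA and 3869 FPKM untreated (-2.80 ± 0.28), and PSAO, of photosystem I, had 1038 FPKM on ABA and 5634 FPKM untreated (-2.44 ± 0.25). DRT112, a plastocyanin gene, had 1030 FPKM on ABA and 4762 FPKM untreated. Near-identical copies, as among the light-harvesting and Rubisco small subunit genes, can share reads, so the level of each copy is uncertain. The bulk tissue gives 1 value for all cells, so fewer cells of a type and less RNA per cell cannot be told apart here or below.

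Of 22 Calvin cycle genes, 19 were called lower and 2 higher at a median of -1.46. CP12-2 had the largest fall of the list, -3.53 ± 0.17, and phosphoribulokinase, PRK, had 197 FPKM on ABA and 997 FPKM untreated. The transketolase gene AT2G45290 was called higher, with 73.7 FPKM on ABA and 21.9 FPKM untreated. All 12 photorespiration genes had negative changes and 11 were called lower, AGT, an aminotransferase of the peroxisome, with 140 FPKM on ABA and 1109 FPKM untreated (-2.98 ± 0.22).

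Of 25 chlorophyll synthesis genes, 15 were called lower and 2 higher at a median of -0.42, and GUN5, a subunit of magnesium chelatase, had 70.6 FPKM on ABA and 217 FPKM untreated. In 7 genes of chlorophyll breakdown 4 were called lower and 2 higher, among them AT4G11910, a STAY-GREEN-like gene, with 10.4 FPKM on ABA and 0.799 FPKM untreated. Of 19 plastid ribosome genes, 7 were called lower at a median of -0.30, with RPL27 at 379 FPKM on ABA and 586 FPKM untreated. The plastid transcription list had 12 of 31 called lower and 7 higher. The sigma factor gene SIGE, which directs the plastid polymerase, had 1.42 FPKM on ABA and 7.31 FPKM untreated, and FSD3, an iron superoxide dismutase, had 120 FPKM on ABA and 48.2 FPKM untreated. The germin-like genes GER1 and GER3, which encode abundant wall glycoproteins, also fell, GER1 with 351 FPKM on ABA and 1845 FPKM untreated and GER3 with 765 FPKM on ABA and 2634 FPKM untreated.

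**Figure D4:**
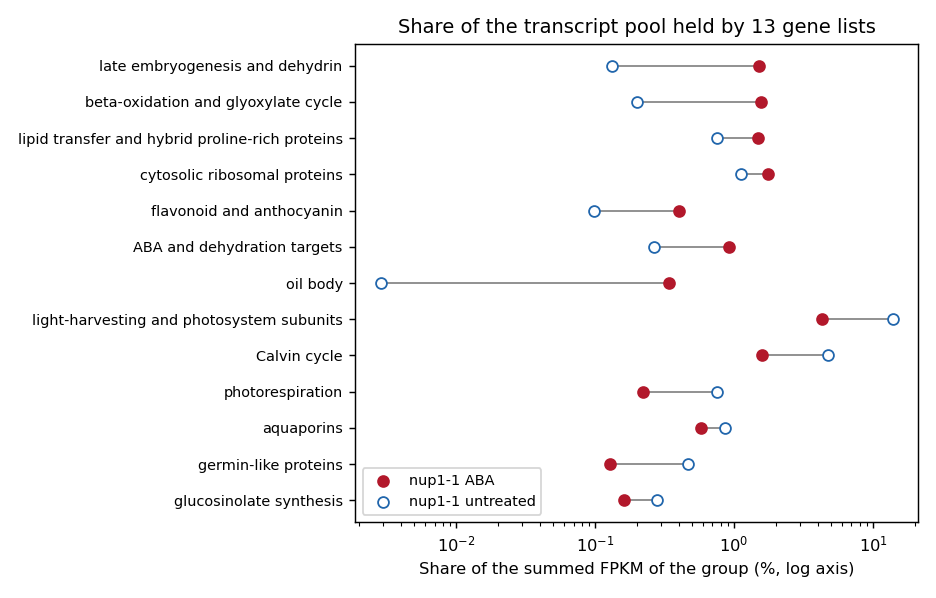
Share of the summed FPKM (%, log axis) held by each of 13 gene lists, filled for nup1-1 ABA and open for nup1-1 untreated. Photosystem genes stand at 4.31% on ABA and 13.9% untreated, and genes of beta-oxidation and the glyoxylate cycle at 1.56% on ABA and 0.201% untreated.

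In the lists of cytosolic ribosomal proteins, DNA replication and mitosis most genes were called higher, with medians from 0.54 to 0.60. Of 35 cytosolic ribosomal protein genes, 25 were called higher and none lower, with a median of 0.54. RPS5B had 379 FPKM on ABA and 207 FPKM untreated (0.87 ± 0.16), and RPL16B had 596 FPKM on ABA and 350 FPKM untreated (0.77 ± 0.17). Ribosome biogenesis genes had 10 of 33 called higher and none lower, among them DIM1A, an rRNA methylase gene, with 70.6 FPKM on ABA and 36.8 FPKM untreated. Proteasome genes had 11 of 39 called higher and none lower at a median of 0.23.

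Of 50 DNA replication genes, 34 were called higher and none lower at a median of 0.60. ICU2, a subunit of DNA polymerase alpha, had 11.5 FPKM on ABA and 5.42 FPKM untreated (1.08 ± 0.15), and ORC4, of the origin recognition complex, had 12.6 FPKM on ABA and 6.28 FPKM untreated. Of 91 genes of mitosis and cytokinesis, 55 were called higher and 6 lower at a median of 0.58. The Aurora kinase gene AUR3 had 9.54 FPKM on ABA and 2.88 FPKM untreated, and the checkpoint gene BUB3.2 had 10.8 FPKM on ABA and 3.41 FPKM untreated. Among the lowered members were CYCD1;1, a G1 cyclin, with 9.64 FPKM on ABA and 15.4 FPKM untreated, and the CDK inhibitor ICK1, with 9.01 FPKM on ABA and 16.1 FPKM untreated. Histone genes had 7 of 23 called higher and 2 lower, with the stress-linked linker histone gene HIS1-3 at 58.7 FPKM on ABA and 21.3 FPKM untreated.

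Wall genes were split. Of 53 expansin and xyloglucan endotransglucosylase genes, 20 were called higher and 21 lower. Of 81 cellulose and arabinogalactan genes, 36 were called lower and 19 higher, FLA13, a fasciclin-like gene, with 8.53 FPKM on ABA and 117 FPKM untreated and AGP10 with 262 FPKM on ABA and 68.6 FPKM untreated. The extensin and proline-rich list had 12 of 24 called lower and 8 higher, and class III peroxidases had 8 of 12 called lower and 2 higher. Tubulin and actin genes had 9 of 36 called lower and 7 higher, TUB8 with 27.7 FPKM on ABA and 76.4 FPKM untreated and TUB1 with 63.5 FPKM on ABA and 25.9 FPKM untreated. Their shares, 25% lower and 19.4% higher, were close to the 25.7% and 21.7% of all members. Of 30 aquaporin genes, 12 were called lower and 5 higher, PIP2E with 59.6 FPKM on ABA and 378 FPKM untreated and PIP2;8 with 57.7 FPKM on ABA and 24.3 FPKM untreated.

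Of 39 starch genes, 11 were called higher and 10 lower at a median of -0.02. That is 28.2% and 25.6%, against 21.7% and 25.7% of all members. GBSS1, which makes amylose, had 52.5 FPKM on ABA and 4.36 FPKM untreated (3.59 ± 0.18). CT-BMY, a plastid beta-amylase, had 6.29 FPKM on ABA and 111 FPKM untreated (-4.15 ± 0.19), while the beta-amylase gene BAM5 was called higher, with 3.61 FPKM on ABA and 1.17 FPKM untreated. Of 45 sucrose and sugar transport genes, 21 were called lower and 14 higher. The monosaccharide importer STP1 had 17.1 FPKM on ABA and 106 FPKM untreated and the vacuolar sugar carrier SWEET16 had 0.294 FPKM on ABA and 9.69 FPKM untreated, while the sucrose synthase gene SUS3 had 40.1 FPKM on ABA and 4.74 FPKM untreated. In the raffinose pathway, whose sugars accumulate in drying seeds, 4 of 11 were called higher and 2 lower, STS with 8.71 FPKM on ABA and 0.315 FPKM untreated and DIN10 with 102 FPKM on ABA and 474 FPKM untreated.

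Of 28 flavonoid and anthocyanin genes, 21 were called higher and 3 lower at a median of 1.49, and their pool share was 0.399% on ABA and 0.0981% untreated. TT4, chalcone synthase at the head of the pathway, had 1733 FPKM on ABA and 329 FPKM untreated (2.40 ± 0.24). The later enzyme genes DFR and LDOX, of anthocyanin synthesis, had 109 and 127.6 FPKM on ABA and 2.94 and 4.50 FPKM untreated, in that order, and the glutathione transferase gene GSTF12, needed to bring anthocyanin to the vacuole, had 115 FPKM on ABA and 5.00 FPKM untreated. MYBL2, a repressor of the pathway, had 3.11 FPKM on ABA and 71.8 FPKM untreated (-4.53 ± 0.23), and PAP1, an activator of the pathway (AT1G56650), had 8.55 FPKM on ABA and 2.44 FPKM untreated.

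Glucosinolate synthesis, which makes the sulfur-rich defence compounds of the cabbage family, went the other way, with 26 of 37 genes called lower and 5 higher at a median of -0.91. The lowered genes named here, CYP79F1, MAM1, CYP83A1 and MYB29, act in the branch from methionine; calls were not counted by branch. CYP79F1 had 0.279 FPKM on ABA and 21.8 FPKM untreated (-6.29 ± 0.41), MAM1, which lengthens the methionine chain, had 4.55 FPKM on ABA and 75 FPKM untreated, CYP83A1 had 5.76 FPKM on ABA and 96.9 FPKM untreated, and MYB29, an activator of the branch, had 0.183 FPKM on ABA and 7.21 FPKM untreated. The 5 genes called higher included CYP79B2, CYP83B1 and MYB34, which act in the branch from tryptophan. CYP79B2 had 50.1 FPKM on ABA and 30.5 FPKM untreated (0.72 ± 0.15), CYP83B1 had 137 FPKM on ABA and 83.6 FPKM untreated (0.71 ± 0.16), and the regulator MYB34 had 45.6 FPKM on ABA and 20.7 FPKM untreated (1.14 ± 0.16). ESM1, which shifts glucosinolate breakdown towards isothiocyanates, had 5.44 FPKM on ABA and 241 FPKM untreated (-5.47 ± 0.19). Phenylpropanoid and lignin genes had 20 of 34 called lower and 5 higher, ELI3-1 with 2.33 FPKM on ABA and 57.9 FPKM untreated, and cutin, suberin and wax genes had 34 of 64 called lower and 10 higher. Among these CYP86A1, of suberin synthesis, had 4.11 FPKM on ABA and 24.9 FPKM untreated, and CER1, of wax alkane synthesis, had 75.8 FPKM on ABA and 13.2 FPKM untreated (2.52 ± 0.17).

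Large enzyme families held genes of both directions. Of 151 cytochrome P450 genes, 67 were called lower (44.4%) and 42 higher (27.8%). Of 45 glutathione transferase genes, 19 were called lower (42.2%) and 15 higher (33.3%). Of 53 UDP-glycosyltransferase genes, 19 were called lower (35.8%) and 15 higher (28.3%). Over all members 25.7% were called lower and 21.7% higher. CYP706A6 had 0.197 FPKM on ABA and 39.5 FPKM untreated, and GSTF6 had 346 FPKM on ABA and 26.1 FPKM untreated. The lipid transfer and hybrid proline-rich list had 9 of 16 called lower and 5 higher, EARLI1 with 6.83 FPKM on ABA and 189 FPKM untreated, while its pool share was 1.48% on ABA and 0.757% untreated. That larger share rested on abundant genes such as LTP2: with the 20 highest genes left out, the difference was -0.0888 percentage points.

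In each of 4 nutrient lists more genes were called lower than higher, whereas 25.7% of all members were called lower and 21.7% higher. Of 46 iron genes, 24 were called lower and 10 higher at a median of -0.56. The iron importer gene IRT1 had 1.84 FPKM on ABA and 72.3 FPKM untreated (-5.30 ± 0.26), the ferric reductase gene FRO2 had 2.46 FPKM on ABA and 16.2 FPKM untreated, and the regulator BHLH101 had 9.09 FPKM on ABA and 58.9 FPKM untreated. FER2, the ferritin gene of seeds, had 194 FPKM on ABA and 2.78 FPKM untreated (6.12 ± 0.24). Among nicotianamine synthases, which make a metal chelator, NAS4 had 99.9 FPKM on ABA and 36 FPKM untreated and NAS2 had 0.288 FPKM on ABA and 10.2 FPKM untreated.

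Of 33 sulfate genes, 17 were called lower and 1 higher, SULTR2;1, a sulfate transporter, with 12.5 FPKM on ABA and 41.3 FPKM untreated and SULTR3;2 with 28.9 FPKM on ABA and 5.44 FPKM untreated. Of 59 nitrogen genes, 31 were called lower and 17 higher, ASN2, an asparagine synthetase, with 77.9 FPKM on ABA and 256 FPKM untreated and NRT1.5, a nitrate transporter, with 22.1 FPKM on ABA and 77.2 FPKM untreated. Of 26 phosphate starvation genes, 11 were called lower and 3 higher. AT5G03545, annotated as induced by phosphate starvation, had 6.14 FPKM on ABA and 64.2 FPKM untreated, and the acid phosphatase gene PAP10 had 71.3 FPKM on ABA and 27.0 FPKM untreated.

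**Figure D5:**
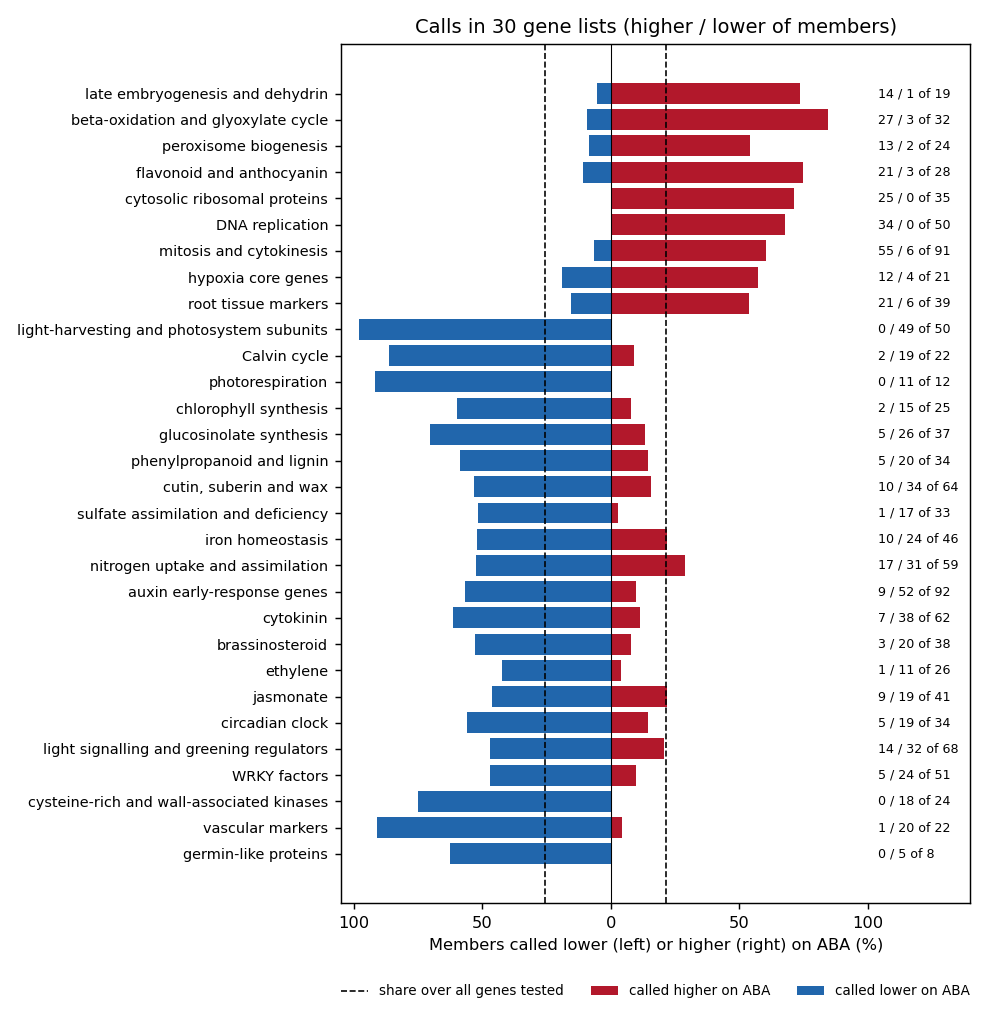
Share of members (%) called higher (right, red) and lower (left, blue) in nup1-1 ABA against nup1-1 untreated for 30 of the 73 gene lists, with dashed lines at 21.7% and 25.7%, the shares over all genes, and the counts at the right. Cytosolic ribosomal proteins have 25 of 35 called higher, and photosystem genes have 49 of 50 called lower.

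In the auxin, cytokinin, brassinosteroid, ethylene and jasmonate lists more genes were called lower than higher, as over all members (25.7% lower, 21.7% higher). The share called lower ran from 42.3% to 61.3% in these lists. Of 92 auxin early-response genes, 52 were called lower and 9 higher at a median of -0.71. SAUR20, a small auxin-up gene, had 1.43 FPKM on ABA and 16.7 FPKM untreated (-3.55 ± 0.43), and AT1G19830, of the same family, had 6.22 FPKM on ABA and 0.462 FPKM untreated. Auxin synthesis and transport genes had 24 of 55 called lower and 9 higher, ABCB21 with 1.88 FPKM on ABA and 13.3 FPKM untreated and NIT3, a nitrilase gene, with 113 FPKM on ABA and 36.8 FPKM untreated. Of 62 cytokinin genes, 38 were called lower and 7 higher at a median of -0.50. The kelch repeat genes AT1G80440, AT2G44130 and AT3G59940, known as KMD1, KMD3 and KMD4, encode F-box proteins that mark type-B response regulators of cytokinin signalling for breakdown, and they led the list. AT1G80440 had 16.3 FPKM on ABA and 267 FPKM untreated (-4.03 ± 0.17), AT2G44130 had 1.57 FPKM on ABA and 58.1 FPKM untreated, and AT3G59940 had 40.6 FPKM on ABA and 306 FPKM untreated.

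Of 38 brassinosteroid genes, 20 were called lower and 3 higher. The bHLH genes BEE1 and BEE3, raised by brassinosteroid, had 1.96 and 4.62 FPKM on ABA and 14.4 and 45.9 FPKM untreated, in that order. BES1, a transcription factor of the pathway, had 58.6 FPKM on ABA and 153 FPKM untreated (-1.39 ± 0.15), while its relative BZR1 had 18.9 FPKM on ABA and 21.8 FPKM untreated with no call. Ethylene genes had 11 of 26 called lower and 1 higher, EFE, an ACC oxidase gene, with 59.6 FPKM on ABA and 424 FPKM untreated (-2.83 ± 0.18). Jasmonate genes had 19 of 41 called lower and 9 higher, AOC2, of jasmonate synthesis, with 57.9 FPKM on ABA and 320 FPKM untreated, whereas CYP94B3 and ST2A, which inactivate jasmonates, had 17.5 and 38.6 FPKM on ABA and 3.07 and 5.77 FPKM untreated, in that order. Gibberellin genes leaned the other way, with 12 of 30 called higher and 6 lower, RGL3, a DELLA repressor gene, with 21.8 FPKM on ABA and 2.40 FPKM untreated.

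ABA's own genes were mixed. Of 39 receptors and core signalling genes, 16 were called higher and 11 lower: HAI2, a phosphatase gene, had 11.8 FPKM on ABA and 0.872 FPKM untreated, and the receptor genes PYL6 and PYL7 had 10.1 and 2.77 FPKM on ABA and 43.1 and 15.5 FPKM untreated, in that order. Of 39 ABA and dehydration targets, 22 were called higher and 6 lower. LTI65 had 829 FPKM on ABA and 1.36 FPKM untreated (9.25 ± 0.26), and NAC3 had 1.58 FPKM on ABA and 20.2 FPKM untreated (-3.67 ± 0.26). Cold genes had 7 of 15 called lower and 2 higher, COR413IM1 with 6.90 FPKM on ABA and 52.9 FPKM untreated.

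Of 34 clock genes, 19 were called lower and 5 higher at a median of -0.53. The evening genes PRR5 and TOC1 had 12.6 and 37.7 FPKM on ABA and 61.2 and 88.2 FPKM untreated, in that order, and BOA had 42.0 FPKM on ABA and 14.1 FPKM untreated. The labels give no hour of harvest, and its part in these levels was not tested. Of 68 light signalling and greening regulators, 32 were called lower and 14 higher. BBX14 had 33.0 FPKM on ABA and 271 FPKM untreated (-3.04 ± 0.17), PIF7, a factor of shade growth, had 1.36 FPKM on ABA and 15.1 FPKM untreated, and GLK2, a greening factor, had 43.8 FPKM on ABA and 91.0 FPKM untreated. HY5, a central factor of light growth, had 28.2 FPKM on ABA and 29.4 FPKM untreated and no call, and ELIP1, a protein of light stress, had 172 FPKM on ABA and 37.6 FPKM untreated. Of 29 NF-Y factors 8 were called lower and 7 higher, NF-YB3 with 23.6 FPKM on ABA and 155 FPKM untreated. These shares, 27.6% and 24.1%, were close to the 25.7% and 21.7% of all members.

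In each of 3 defence lists more genes were called lower than higher, as over all members (25.7% lower, 21.7% higher). The share called lower ran from 47.1% to 75% in these lists. Of 51 WRKY factors, 24 were called lower and 5 higher, WRKY40 with 2.01 FPKM on ABA and 21.2 FPKM untreated and WRKY41 with 14.8 FPKM on ABA and 2.56 FPKM untreated. Of 24 cysteine-rich and wall-associated kinases, receptors at the cell surface, 18 were called lower and none higher at a median of -0.96. CRK21 had 0.165 FPKM on ABA and 10.4 FPKM untreated (-5.98 ± 0.44), and CRK40 had 1.30 FPKM on ABA and 15.7 FPKM untreated. Pathogenesis and salicylate genes had 19 of 38 called lower and 6 higher. CBP60G, an activator of salicylate synthesis, had 0.225 FPKM on ABA and 4.87 FPKM untreated, whereas the defensin-type genes LCR67 and PDF1.4 had 320 and 38.2 FPKM on ABA and 7.17 and 2.97 FPKM untreated, in that order.

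Of 21 hypoxia core genes, 12 were called higher and 4 lower at a median of 1.04. Alcohol dehydrogenase, ADH1, had 196 FPKM on ABA and 5.62 FPKM untreated (5.12 ± 0.48), AT5G15120, the plant cysteine oxidase PCO1 that acts as an oxygen sensor, had 82.5 FPKM on ABA and 3.39 FPKM untreated, and the haemoglobin gene HB1 had 73.2 FPKM on ABA and 13.2 FPKM untreated. Of 33 genes against reactive oxygen, 15 were called higher and 11 lower, DHAR1 with 761 FPKM on ABA and 241 FPKM untreated and the thylakoid peroxidase TAPX with 19.3 FPKM on ABA and 86.8 FPKM untreated. Alternative respiration had 4 of 17 called higher and 3 lower, AOX1A, the alternative oxidase, with 10.8 FPKM on ABA and 32.6 FPKM untreated. The shares of that list were 23.5% higher and 17.6% lower, against 21.7% and 25.7% of all members. Heat shock factors and chaperones had 20 of 51 called higher and 9 lower, HSFA6B with 14.5 FPKM on ABA and 2.24 FPKM untreated. Of 35 genes of folding in the endoplasmic reticulum, 5 were called higher and 3 lower, shares below those of all members. Autophagy genes had 9 of 29 called lower (31.0%) and 2 higher (6.90%). Vacuolar proteases had 17 of 48 called higher (35.4%) and 14 lower (29.2%). Among 10 nuclear pore genes, 3 were called higher (30%) and 1 lower (10%), NUP1 itself. Over all members 21.7% were called higher and 25.7% lower.

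Of 39 root marker genes, 21 were called higher and 6 lower at a median of 0.55. The summed level of the list was 3782 FPKM on ABA and 2173 FPKM untreated, of which PYK10, which had no call, made up 3161 FPKM on ABA and 1746 FPKM untreated. Root hair genes such as MOP10 and RHS19 had 96.6 and 65.1 FPKM on ABA and 35.6 and 24.8 FPKM untreated, in that order, while the endodermal genes CASP1 and CASP2 had 33.9 and 8.29 FPKM on ABA and 54.4 and 15.4 FPKM untreated. Of 22 vascular markers, 20 were called lower and 1 higher at a median of -0.77, and the summed level of the list was 194 FPKM on ABA and 374 FPKM untreated. The sieve element gene SEOR1 had 4.83 FPKM on ABA and 21.0 FPKM untreated, the xylem protease gene XCP2 had 26.4 FPKM on ABA and 74.0 FPKM untreated, and CLE41, a peptide gene of the vascular cambium, had 47.6 FPKM on ABA and 32.2 FPKM untreated. Of 17 guard cell lineage markers, 7 were called lower and 5 higher, with the guard cell channel gene KAT1 at 1.19 FPKM on ABA and 6.22 FPKM untreated and the polarity gene BASL at 7 FPKM on ABA and 2.42 FPKM untreated. Shoot meristem and epidermis markers had 5 of 22 called higher and 3 lower, or 22.7% and 13.6%, against 21.7% and 25.7% of all members. Endosperm and seed coat markers had 4 of 15 called higher and 4 lower, with MAN7, an endosperm mannanase, at 40.8 FPKM on ABA and 5.36 FPKM untreated. That is 26.7% in each direction, near the shares over all members. The defining seed coat gene BAN stood at 0.0181 FPKM on ABA and at 0 untreated. The part of tissue proportions in these marker lists and in the other lists was not tested.

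RefSeq product names grouped the members into 156 families of at least 15 genes. The largest negative median, -1.26, was that of 58 SAUR-like auxin-responsive proteins, 33 of them called lower and 8 higher. Disease resistance proteins of the TIR-NBS-LRR class had 25 of 40 called lower and 3 higher at a median of -0.76, VQ motif proteins had 15 of 22 called lower and 1 higher, and Dof zinc finger factors had 14 of 18 called lower and none higher. At the other end, proteins annotated simply as ribosomal had 28 of 42 called higher and 4 lower at a median of 0.55. Of 172 pentatricopeptide repeat proteins, which process organelle RNA, 15 were called higher (8.72%) and 12 lower (6.98%). Of 238 tetratricopeptide repeat-like proteins, 36 were called higher (15.1%) and 28 lower (11.8%). Both families had smaller shares of calls in each direction than all members, of which 21.7% were called higher and 25.7% lower. Of 94 transporters of the major facilitator superfamily, 46 were called lower and 17 higher.

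The nup1-1 response was set against that of Col-0 by a Wald test on the log2 changes of the table of each genotype; no library is in both tables. Of 19487 genes tested, the response was higher in nup1-1 for 920 (4.72%) and lower for 2277 (11.7%) at an adjusted p under 0.05. A lower response means a more negative log2 change in nup1-1 than in Col-0, so a stronger fall counts as lower. Of the 2277, 2019 were called lower in nup1-1, and of the 920, 819 were called higher there. The standard error was in doubt for 30 of the 920 and 102 of the 2277 in at least 1 of the tables. Genes at the smallest deposited p-value were exempt from this check, so these counts are minimums.

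The counts by list stood as follows beside those shares. Of 36 glucosinolate genes tested, the response was lower in nup1-1 for 18 and higher for none; CYP79F1 had 12.3 FPKM on ABA and 19.4 FPKM untreated in Col-0, and its response in nup1-1 minus that in Col-0 was -5.64 ± 0.51 on the log2 scale. Of 23 cysteine-rich and wall-associated kinases it was lower for 16, of 91 auxin early-response genes lower for 35 and higher for 1, of 61 cytokinin genes lower for 18, of 33 sulfate genes lower for 15, and of 46 iron genes lower for 20 and higher for 4. Ethylene genes had 12 of 26 lower and 1 higher, brassinosteroid genes 13 of 38 lower and jasmonate genes 15 of 41 lower. Of 50 photosystem genes it was lower for 25 and higher for none. Their median log2 change was -2.11 in nup1-1 and -1.05 in Col-0, a larger fall in nup1-1. On the other side stood the late embryogenesis list, higher for 10 of 19, beta-oxidation and the glyoxylate cycle, higher for 12 of 32 and lower for 2, and cytosolic ribosomal proteins, higher for 7 of 35. DNA replication genes, by contrast, had a different response for 2 of 50 and proteasome genes for none of 39.

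The single genes given next were chosen after their values were seen. CAT2 had 816 FPKM on ABA and 156 FPKM untreated in nup1-1, against 512 FPKM on ABA and 526 FPKM untreated in Col-0, a difference of responses of 2.43 ± 0.33. AT3G15450, annotated as an aluminium-induced protein, had 15.7 FPKM on ABA and 789.03 FPKM untreated in nup1-1, against 190 FPKM on ABA and 262 FPKM untreated in Col-0, a difference of -5.18 ± 0.46. BEE3 had 27.8 FPKM on ABA and 28.2 FPKM untreated in Col-0, so its fall in nup1-1 made a difference of -3.29 ± 0.31. EFE and AOC2 had 307 and 220 FPKM on ABA and 351 and 194 FPKM untreated in Col-0, in that order, with differences of -2.63 ± 0.30 and -2.65 ± 0.28. FTM1, of a desaturase family, had 34.2 FPKM on ABA and 2.45 FPKM untreated in nup1-1, against 10.3 FPKM on ABA and 6.58 FPKM untreated in Col-0, a difference of 3.16 ± 0.32. Each table was normalized on its own, and the median log2 change differed between them by 0.03.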

How the data were processed

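RNA of seedlings was sequenced in 12 samples of 4 groups, 3 samples each. Per the submitters' processing notes, TAIR10 was the build and TopHat, Trimmomatic and FastQC were used; their versions and the quantifying program were not given in the sources used here. FPKM values were deposited, 1 per group and gene, so no SD over samples exists. Per the file headers the tables also hold, for each gene, a test statistic (a score), a p-value, a q-value and a log2 fold change. Each table was normalized separately, and q-values are the authors'. Plastid and mitochondrial rows (130 and 141) are listed at 0, and CAB1 is marked as failed and listed at 0; they were left out. The 286 rows that join neighbouring gene models stayed in the counts over all genes and out of the lists.

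Log2 changes were recomputed from FPKM. The deposited statistic times 1.74 (nup1-1) or 1.75 (Col-0), fitted to the deposited p-values, gave normal deviates and with them the standard errors. These errors were in doubt (over 1.5 times smaller than the p-value implies) for 452 members. The q-value is not printed for every such gene that is named. The Wald test was 2-sided with Benjamini-Hochberg adjustment, and the calculation was tested on simulated data. Symbols, product names and promoters come from RefSeq TAIR10.1, where 32208 rows matched a locus tag; 12485 promoters have the same start in both annotations. Python 3.11.15, pandas 2.3.3, NumPy 2.4.6, SciPy 1.17.1 and matplotlib 3.10.9 were used.

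The members and the 73 gene lists were chosen with earlier results of these data known, as were the tests. Genes with the same symbol as a listed gene but another identity were removed. Named genes are the 12 largest rises, the 12 largest falls and the 12 highest of each group, the 4 largest changes of each list in its main direction and 2 in the other, and genes whose textbook role is described. Alternatives tried were other level filters, a q under 0.01, adjustment over the members alone, other pseudocounts, centring and leaving out the 20 highest genes.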

Additional observations from a re-analysis of the deposited data

Results flagged for a closer look

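The ABA response differed between genotypes, by the Wald test of the difference itself, with 920 genes higher and 2277 lower in nup1-1 than in Col-0. Lower again means a more negative log2 change, which includes stronger falls. The genes listed here are a selection made after their values were seen, out of 446 named genes tested, of which 83 responded higher and 174 lower in nup1-1. The difference of the log2 responses (nup1-1 minus Col-0) was negative for CYP79F1 (-5.64), AT3G15450 (-5.18), BT5 (-4.88), XTH6 (-4.45), CBP60G (-4.04), CRK21 (-3.90), IRT1 (-3.43), BEE3 (-3.29), CT-BMY (-3.01), COR413IM1 (-2.89), AOC2 (-2.65), EFE (-2.63) and CP12-2 (-2.45). It was positive for FTM1 (3.16), LCR67 (2.94), OLEO3 (2.62) and CAT2 (2.43). BT5, which encodes a BTB and TAZ domain protein, had 0.866 FPKM on ABA and 77.9 FPKM untreated in nup1-1, against 14.5 FPKM on ABA and 44.2 FPKM untreated in Col-0. IRT1 had 28.8 FPKM on ABA and 105 FPKM untreated in Col-0, XTH6 had 42.8 FPKM on ABA and 82.3 FPKM untreated there, and LCR67 had 31.9 FPKM on ABA and 5.48 FPKM untreated. AT2G44130 had the value -8.06, with 1.57 FPKM on ABA and 58.1 FPKM untreated in nup1-1, against 19.5 FPKM on ABA and 2.71 FPKM untreated in Col-0, but the Col-0 change had no call (q = 0.34 in the authors' deposited table) and its standard error is in doubt. No spread between single samples could be examined for outliers, since each group has 1 value per gene.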

How the results depend on the processing

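Asking for a log2 change of at least 1 as well left 1270 genes higher and 2116 lower. An adjusted p under 0.01 left 418 genes with a higher response in nup1-1 than in Col-0. Under the other alternatives the counts ran from 3154 to 4342 higher and 4108 to 5186 lower on ABA, and from 821 to 919 higher and 1629 to 2361 lower for the response difference. With the 20 highest genes left out, the share difference of the lipid transfer and hybrid proline-rich list turned to -0.0888 percentage points. For 4 other lists the share difference moved by at least 0.1 percentage points. The sign of the list median changed for 1 of 73 lists without a pseudocount, for 2 at 5 FPKM, and for none with a pseudocount of 0.1 or after centring. The median moved by over 0.2 for 7 lists with a pseudocount of 0.1, for 8 without one, for 13 at 5 FPKM and for none after centring. At a q under 0.01, 13 of the 146 counts by list and direction moved by over 1.5 times and 21 of 450 named calls were lost, RBCS1A among them. No paired analysis was possible because the tables hold 1 value per group, and for the same reason leaving out single replicates was not run.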
